A study of Mus musculus with 6 samples.

Results

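The genes described here encode the cell's cholesterol and fatty acid synthesis pathways and the proteins that control them through SREBP, the sterol regulatory element-binding proteins. The 38 members are a list of gene symbols drawn up for these pathways, and all 38 were found among the 55335 mouse Ensembl gene identifiers of the deposited table. RNA was sequenced from RAW 264.7 cells, a wild-type mouse macrophage line, in 2 groups of 3 libraries. All cells received lipopolysaccharide (LPS), a bacterial cell wall component, at 200 ng/ml for 8 h. One group, LPS, had no other treatment. The second group, LPS plus ultrasound, was exposed to ultrasound for 10 min of the 8 h. The ultrasound had a frequency of 1 MHz, an intensity of 50 mW/cm², pulses of 200 µs repeated at 1 kHz and thus a duty cycle of 20%. Cells without LPS were not analysed here. Whether the 3 libraries of a group stem from separate cultures is not stated in the labels, so p-values reflect the spread among the libraries only, and that spread may be technical.

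Cholesterol is built from acetyl-CoA through mevalonate, farnesyl diphosphate, squalene and lanosterol, and fatty acids are built from the same precursor by Acaca and Fasn and then lengthened and desaturated. The SREBP proteins are made as membrane-bound precursors. When sterols are low, Scap escorts them from the endoplasmic reticulum to the Golgi, where they are cut and freed to enter the nucleus, and when sterols are high, Insig proteins hold Scap back. SREBP-2, from Srebf2, mainly drives the sterol genes, and SREBP-1c, from Srebf1, mainly the fatty acid genes. In macrophages both pathways are known to be remodelled after LPS. The control is largely at the protein level, which RNA does not show.

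The members were divided by role into a sterol arm of 19 enzymes, a fatty acid arm of 12 enzymes, and 7 genes of SREBP control, sterol transport and storage. Values are FPKM, fragment counts normalised for transcript length and library size, given as mean ± SD over 3 libraries. Testing was limited to genes that averaged 1 FPKM or more, which kept 36 of the 38 members: Acss2 (mean 0.731 FPKM) and Fads3 (0.310 FPKM), both of the fatty acid arm, fell below it. A fold change is given as the ultrasound group's mean log2(FPKM + 1) minus that of the LPS group, ± the standard error of limma, a linear model with moderated variances. This scale understates changes of low genes. A gene counts as changed where its Benjamini-Hochberg adjusted p, taken over all tested genes, is below 0.05.

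The 10 macrophage markers were all present at 1 FPKM or more on average, with a summed level of 2541 to 2795 FPKM in the LPS libraries and 2609 to 2869 with ultrasound. Fcer1g and Cd68 made up most of this sum, which hides lower markers that moved in different directions. Adgre1 averaged 25.1 ± 7.98 FPKM with LPS and 15.5 ± 2.04 with ultrasound, and Itgam 21.7 ± 9.49 and 12.55 ± 0.73. Csf1r rose from 50.85 ± 19.9 to 71.7 ± 20.7. Their groups overlapped, and none passed the adjusted threshold. Of 6 adipocyte markers, from a cell type rich in lipid synthesis, only Fabp4 averaged 1 FPKM or more, and the list summed to 1.66 to 2.41 FPKM in the LPS libraries and 1.37 to 2.09 with ultrasound. None of 6 hepatocyte, 8 skeletal muscle and 6 fibroblast markers reached it, and 3 of each were listed at 0 in all 6 libraries. The hepatocyte list summed to 0.0226 to 0.235 FPKM in the LPS libraries and 0.314 to 0.602 with ultrasound, groups that did not overlap, at levels close to 0. The muscle sums were 0.743 to 1.06 and 0.721 to 1.24 FPKM, and the fibroblast sums 0 to 0.0543 and 0 to 0.0297. LPS library 2 stood apart over all genes, at -28.8 on principal component 1 against -2.03 to 17.7 for the other 5, and ultrasound library 2 was the highest of the 6 for many members, as given below. In RNA of a whole culture, fewer cells that express a gene and less RNA per cell cannot be told apart.

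No member changed with ultrasound: 0 of the 36 tested members passed the adjusted threshold, which 2 of 11270 tested genes passed (0.0177%). The adjusted p of the members ran from 0.22 to 0.96 (limma with Benjamini-Hochberg adjustment). With the replicate number as a block in the model, 0 members passed as well, beside 13 of all genes (0.115%). At an unadjusted limma p below 0.05, 3 members were higher (8.33% of the tested members, against 6.18% of all genes) and 0 were lower (9.16% of all genes). The 3 are Fasn, Acaca and Insig1. Among all genes at that p, 40.3% were higher, and 30.2% after scaling the libraries to the same FPKM sum. In 4 members the ultrasound libraries all exceeded the LPS libraries (11.1%, against 9.80% of all genes), namely the same 3 genes and Tm7sf2. The opposite order was found in 0 members and in 13.4% of all genes. The shares of higher members are near those of all genes, and those of lower members are below them. Of the tested members 24 had a fold change above 0 (66.7%, against 46.1% of all genes), with a median of 0.08 beside -0.02 over all tested genes. The counts at an unadjusted p are those of the fit without the block. In the blocked fit Fasn, Acaca and Insig1 stayed below an unadjusted limma p of 0.05. Msmo1 (0.038) and Scap (0.041), both higher, and Mvd (0.034), lower, joined them. The share of all genes below it in that fit was not counted.

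**Figure D1:**
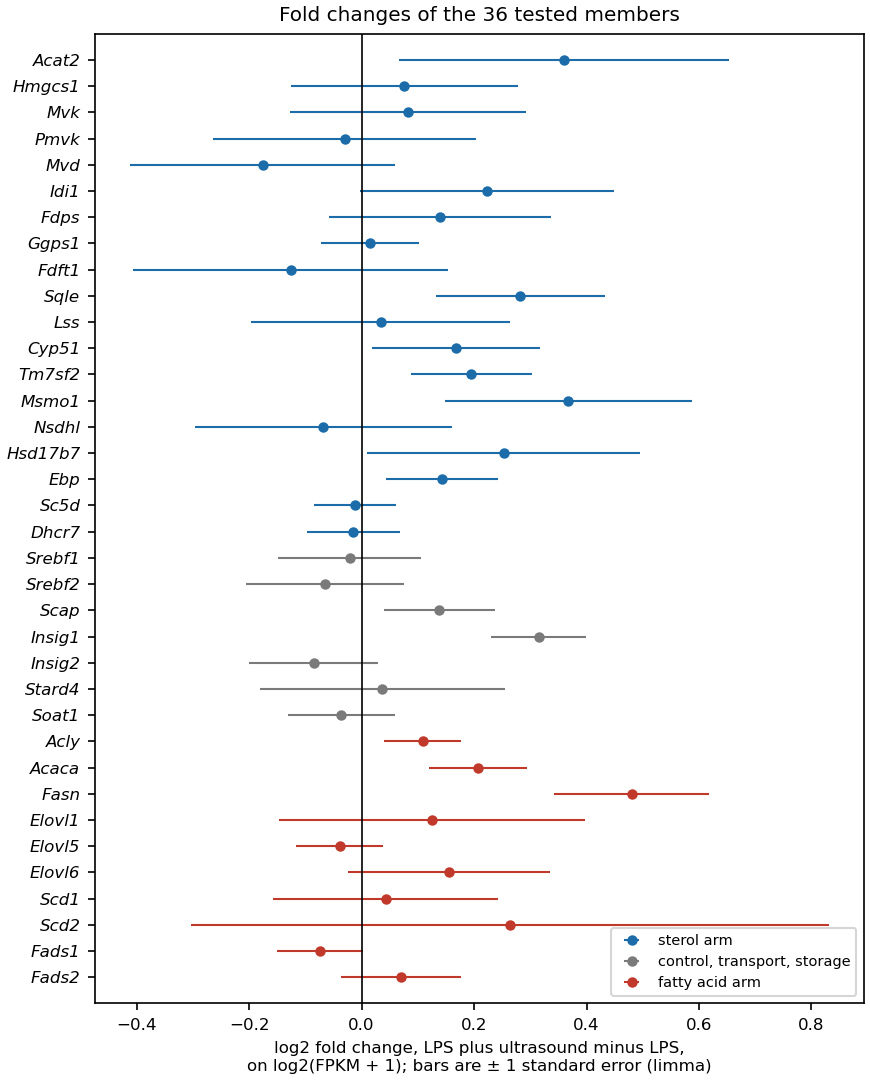
Log2 fold change (x axis, LPS plus ultrasound minus LPS on log2(FPKM + 1)) of each of the 36 tested members, listed by role on the y axis; points are limma estimates and bars are ± 1 standard error. Fasn, at 0.48, lies farthest to the right, Mvd, at -0.18, farthest to the left, and Scd2 has the widest bar.

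The bases before the transcription starts were examined because SREBP works there together with NF-Y, a factor that binds the CCAAT box. RefSeq promoter sequences (GRCm38.p6) were at hand for 31 of the 38 members, and the 250 bases upstream of each start were searched on both strands for exact matches. Fads1, Scd1, Scd2, Sqle, Fdps, Fdft1 and Stard4 had no entry. CCAAT was found in 25 of the 31 (80.6%), against 37.5% of the 27025 genes in the RefSeq table. Those genes were not limited to the ones tested here, and whether the gap goes with expression was not tested. By arm it was found in 15 of 16 sterol genes (93.8%) and 5 of 9 fatty acid genes (55.6%). The core of the sterol regulatory element, written TCACNCCAC, was found in 1 member, Hmgcs1 (3.23%, against 1.22% of all genes), and the E-box CACGTG, which SREBP also binds, in 6 (19.4%, against 6.86%). Genes with several starts were counted once if any start held the motif. Matches describe the sequence only, and no measurement of SREBP binding was analysed here. 3 promoter stretches are shown, that of Hmgcs1 because it holds the sterol element, and those of Insig1 and Fasn because their values are the ones that come closest to a difference below. Capitals mark the motifs, positions count back from the base before the start as -1, and the strand shown is that of the gene.
Hmgcs1, chr13:119690161-119690251, plus strand, -190 to -100: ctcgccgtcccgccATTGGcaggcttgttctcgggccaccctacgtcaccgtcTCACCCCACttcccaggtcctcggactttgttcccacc
Insig1, chr5:28071262-28071342, plus strand, -150 to -70: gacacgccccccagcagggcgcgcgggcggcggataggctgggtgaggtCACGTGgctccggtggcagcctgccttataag
Fasn, chr11:120824587-120824667, minus strand, -120 to -40: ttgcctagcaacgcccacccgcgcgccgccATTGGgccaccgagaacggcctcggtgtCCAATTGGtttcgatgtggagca

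In Hmgcs1 the sterol element starts at -137, downstream of an inverted CCAAT box at -176. The Insig1 stretch holds the E-box at -101, and its only CCAAT match lies farther upstream, at -216. The Fasn stretch holds CCAAT matches at -90, -62 and -59, of which the last pair overlap because CCAATTGG reads as CCAAT on both strands.

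Among the controllers, Insig1 was higher in every ultrasound library than in any LPS library, and the SREBP genes themselves differed by less than the spread within a group. Insig1 (ENSMUSG00000045294), which retains Scap in the endoplasmic reticulum and is itself an SREBP target, had 29.8, 29.0 and 32.9 FPKM in LPS libraries 1, 2 and 3 and 35.6, 41.0 and 38.3 with ultrasound. The groups did not overlap. The means of 30.6 ± 2.08 and 38.3 ± 2.70 FPKM gave a ratio of 1.25 and a log2 fold change of 0.31 ± 0.08, which missed the threshold at a Benjamini-Hochberg adjusted limma p of 0.22, or 0.079 in the fit blocked on the replicate number. Without both libraries numbered 2 the log2 fold change was 0.23.

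Insig2, the paralog that is not an SREBP target, had 7.42, 8.86 and 7.41 FPKM with LPS and 8.46, 6.60 and 7.14 with ultrasound. The groups overlapped. Its log2 fold change of -0.08 ± 0.11 had a 95% interval of -0.35 to 0.18. The interval of Insig1, 0.12 to 0.51, overlapped it, and the difference between both genes was not tested.

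Srebf2, the gene of the sterol-directed SREBP, had 36.4, 42.8 and 31.8 FPKM with LPS and 32.5, 41.7 and 31.9 with ultrasound. Library 2 was the highest in both groups, and the groups overlapped. The log2 fold change was -0.06 ± 0.14, with a 95% interval of -0.40 to 0.27. Srebf1, which encodes SREBP-1a and SREBP-1c from different starts that a gene-level value does not separate, had 15.4, 17.3 and 14.1 FPKM with LPS and 13.9, 18.3 and 14.0 with ultrasound. Here too library 2 was the highest of each group, and the log2 fold change was -0.02 ± 0.13 (95% interval -0.32 to 0.28). Per length, Srebf2 transcripts were above Srebf1 transcripts in every library.

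Scap, the escort protein gene, had 13.3, 11.1 and 12.2 FPKM with LPS and 14.7, 12.2 and 13.6 with ultrasound. The ultrasound library was the higher one in each of the 3 same-numbered pairs, but the groups overlapped. The log2 fold change was 0.14 ± 0.10 at a Benjamini-Hochberg adjusted limma p of 0.52, or 0.16 in the blocked fit. In both groups library 2 was the lowest for Scap, the reverse of Srebf1 and Srebf2.

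Stard4, a soluble carrier that moves cholesterol between membranes, ranged from 4.60 to 7.41 FPKM with LPS and from 4.96 to 8.67 with ultrasound, with library 2 highest in each group. Soat1, which esterifies cholesterol for storage in droplets, had 23.3, 25.1 and 21.3 FPKM with LPS and 22.1, 24.9 and 20.9 with ultrasound. The log2 fold changes were 0.04 ± 0.22 and -0.04 ± 0.10.

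**Figure D2:**
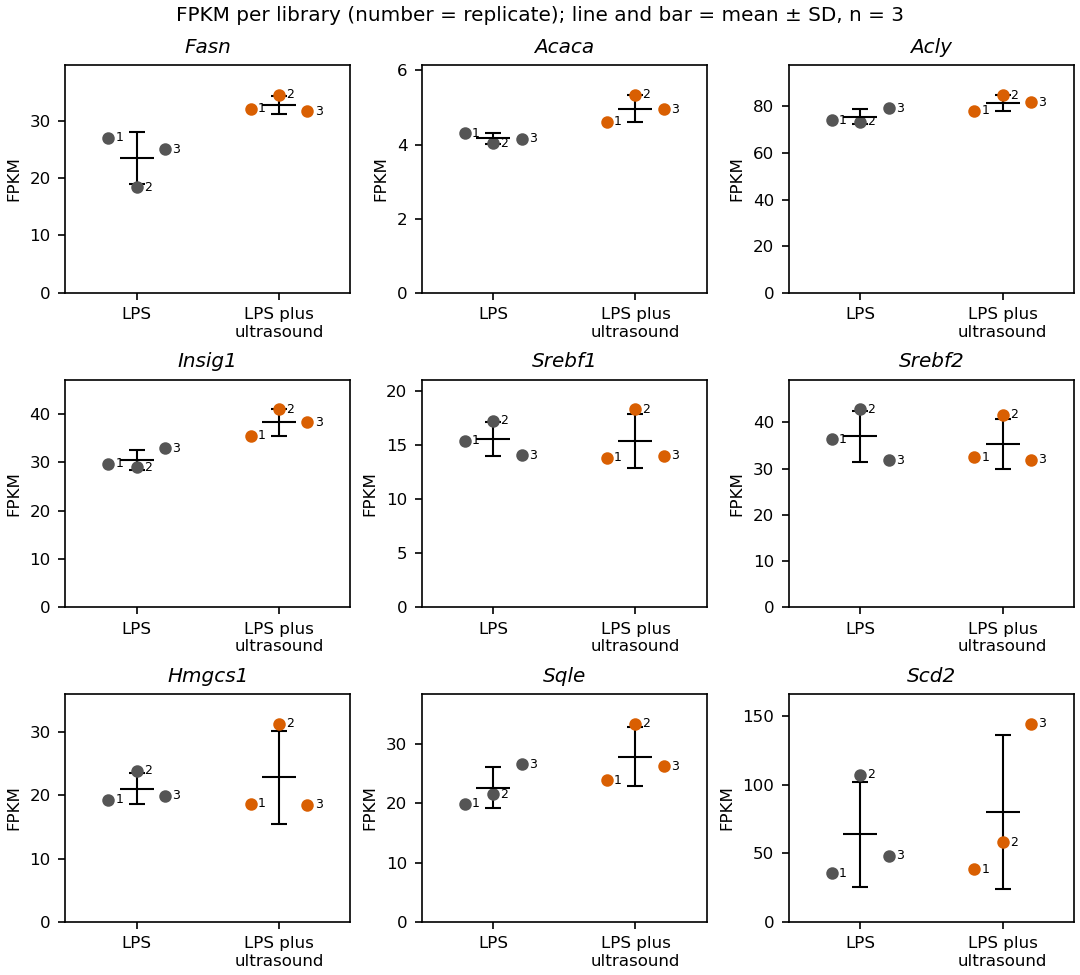
FPKM (y axis, from 0) of 9 members in each library of LPS and LPS plus ultrasound (x axis); numbered points are libraries, and lines with bars are mean ± SD of 3 libraries. The points of Fasn, Acaca and Insig1 do not overlap between groups, while Hmgcs1 is raised mainly in ultrasound library 2 and Scd2 is spread from 35.5 to 144.5 FPKM.

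Mevalonate pathway genes did not separate the groups. In most of them ultrasound library 2 was the highest, while ultrasound libraries 1 and 3 lay near LPS libraries 1 and 3. LPS library 2 was about as high for Pmvk (22.1 FPKM, against 23.0 in ultrasound library 2) and the highest for Mvd. Ggps1 had no such peak. Hmgcs1, which makes HMG-CoA, had 19.3, 23.9 and 20.0 FPKM with LPS and 18.7, 31.3 and 18.5 with ultrasound. Its value in ultrasound library 2 was the highest of the 6, and the other ultrasound values were the lowest of the 6. The log2 fold change was 0.08 ± 0.20.

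Fdps, which makes farnesyl diphosphate and had the highest level of the sterol arm, had 47.3, 60.7 and 46.7 FPKM with LPS and 48.9, 77.2 and 47.7 with ultrasound. Both libraries numbered 2 stood above the other 4. The log2 fold change of 0.14 ± 0.20 turned to -0.08 without ultrasound library 2. In the GENCODE M21 annotation Fdps shares 1124 exonic bases with Gm43738 on the same strand. Gm43738 had 1.19 FPKM in ultrasound library 2 and 0.0704 or less in every other library. How reads were divided between both genes is not shown. Idi1, the isomerase that supplies dimethylallyl diphosphate, had 12.3, 14.5 and 13.4 FPKM and then 11.9, 23.6 and 13.9, again with 1 high ultrasound library.

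Acat2, the thiolase that joins acetyl-CoA units in the cytosol, showed the largest jump in that library. It had 12.0, 11.8 and 11.8 FPKM with LPS and 9.49, 25.3 and 15.2 with ultrasound. The log2 fold change was 0.36 ± 0.29. The near-identical neighbouring gene Acat3 had 2.11 FPKM in ultrasound library 2 and 0.0822 to 0.258 in the other 5, so reads of both genes may be divided between them in ways that the table does not show.

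Mvd, which decarboxylates mevalonate diphosphate, went the other way, with 25.8, 39.5 and 28.1 FPKM with LPS and 21.2, 37.99 and 24.3 with ultrasound. The ultrasound library was the lower one in each same-numbered pair, by less than libraries of 1 group differed (log2 fold change -0.18 ± 0.24). In the fit blocked on the replicate number the standard error was 0.06, at a Benjamini-Hochberg adjusted limma p of 0.14. The kinase genes Mvk and Pmvk had log2 fold changes of 0.08 ± 0.21 and -0.03 ± 0.23, and both had their highest value in ultrasound library 2. Ggps1, which makes geranylgeranyl diphosphate for protein prenylation and leaves the sterol route, varied least of the 8, from 3.04 to 3.49 FPKM (log2 fold change 0.01 ± 0.09).

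None of the enzymes from squalene to cholesterol passed the threshold. Sqle, the squalene epoxidase and a rate-limiting step, had 20.0, 21.5 and 26.6 FPKM with LPS and 23.9, 33.5 and 26.3 with ultrasound. The groups overlapped through LPS library 3, and the log2 fold change was 0.28 ± 0.15 (95% interval -0.07 to 0.63). Cyp51, the lanosterol demethylase, had 27.5, 33.5 and 32.7 FPKM and then 28.9, 43.0 and 34.6 (0.17 ± 0.15), higher in each same-numbered pair. Msmo1, the next demethylating oxidase, had 24.6, 27.8 and 16.7 FPKM and then 25.0, 38.4 and 26.4. Its estimate, 0.37 ± 0.22, rested on a low LPS library 3 and a high ultrasound library 2. The Benjamini-Hochberg adjusted limma p was 0.45, or 0.15 in the blocked fit.

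Hsd17b7, a sterol ketoreductase, had 5.45, 7.61 and 6.55 FPKM with LPS and 5.99, 12.2 and 6.68 with ultrasound, with ultrasound library 2 far above the rest. Nsdhl, its partner in removing the C4 methyl groups, and Lss, the lanosterol synthase, had log2 fold changes of -0.07 ± 0.23 and 0.03 ± 0.23, and in both genes the libraries numbered 2 were the highest of the 6. The late enzymes showed little spread. Sc5d lay between 21.6 and 24.3 FPKM in all libraries and Dhcr7, which reduces 7-dehydrocholesterol to cholesterol, between 16.1 and 18.9, with log2 fold changes of -0.01 ± 0.07 and -0.01 ± 0.08. Ebp, the sterol isomerase, had 0.14 ± 0.10.

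Tm7sf2, a sterol reductase, was the only sterol enzyme whose groups did not overlap, with 1.46, 1.54 and 1.72 FPKM with LPS and 1.83, 2.28 and 1.76 with ultrasound. The gap between the groups was small and the log2 fold change of 0.20 ± 0.11 missed the threshold at a Benjamini-Hochberg adjusted limma p of 0.42. In the GENCODE M21 annotation 532 of its 4403 exonic bases are shared with Vps51 on the same strand, so this low value is uncertain. Fdft1, the squalene synthase, ranged from 6.35 to 13.7 FPKM, both within the ultrasound group, and shares 774 exonic bases with Ctsb on the opposite strand, a lysosomal protease gene at 326 to 371 FPKM. Whether counting used the strand is not given in the sources used here.

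Ultrasound library 2 was the highest of all 6 libraries for 16 of the 19 sterol enzymes (84.2%), against 19.6% of all tested genes. Both libraries numbered 2 stood above the other 4 in 11 of the 19 (57.9%, against 15.7% of all tested genes). The exceptions to a peak in ultrasound library 2 were Ggps1, Mvd and Dhcr7. Sterol enzymes thus varied together between libraries of 1 group, and their values are not independent of each other.

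**Figure D3:**
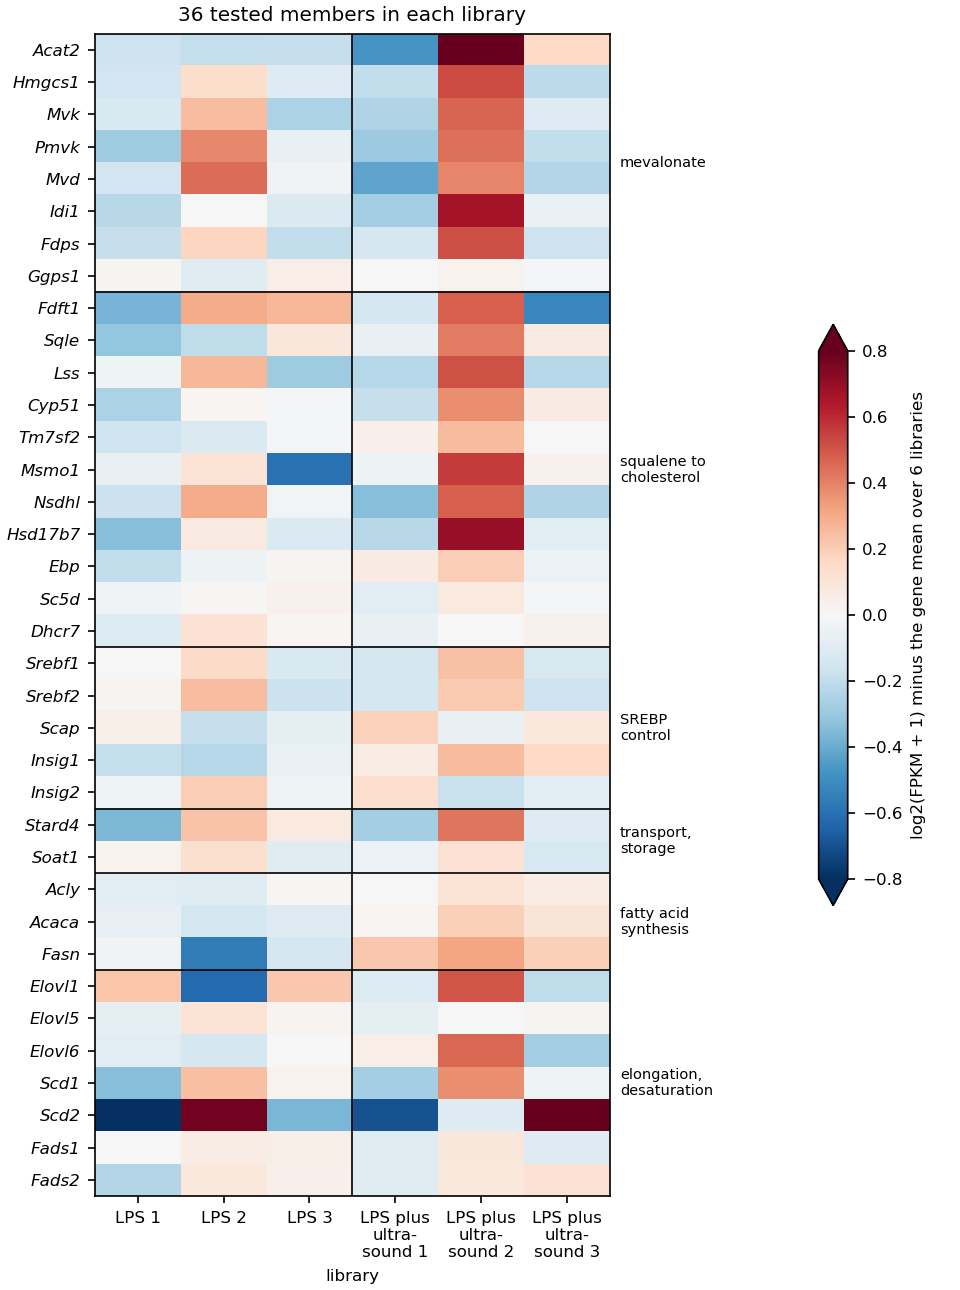
Each cell is log2(FPKM + 1) minus the mean of the gene over the 6 libraries, for the 36 tested members (rows, by role) in the 6 libraries (columns); the colour scale ends at ±0.8. The column of ultrasound library 2 is red across most sterol enzymes, whereas Fasn and Insig1 are below their gene means in the LPS libraries and above them in the 3 ultrasound libraries.

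The fatty acid enzymes also peaked in ultrasound library 2, which was the highest of all 6 libraries for 7 of the 10 tested (70%), Fasn, Acaca and Acly among them. Both libraries numbered 2 stood above the other 4 in 2 of the 10 (20%). For the 3 tested enzymes of the core route, the ultrasound library exceeded its LPS counterpart in each same-numbered pair, which was also so for 5 of the 19 sterol enzymes. How many of all tested genes were higher in each pair was not counted, so these counts have no share to be read against. Fasn (ENSMUSG00000025153), the synthase that assembles palmitate, had 27.0, 18.4 and 25.0 FPKM in LPS libraries 1, 2 and 3 and 32.1, 34.5 and 31.6 with ultrasound. All ultrasound libraries lay above all LPS libraries and close to each other. The means of 23.5 ± 4.50 and 32.7 ± 1.54 FPKM gave a ratio of 1.40 and a log2 fold change of 0.48 ± 0.14, which missed the threshold at a Benjamini-Hochberg adjusted limma p of 0.22, or 0.12 in the blocked fit. The low LPS library 2 carried part of this, with 0.32 without it and 0.28 without both libraries numbered 2.

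Acaca, the acetyl-CoA carboxylase that commits carbon to fatty acids, had 4.31, 4.03 and 4.16 FPKM with LPS and 4.61, 5.34 and 4.95 with ultrasound. The groups did not overlap, and the log2 fold change was 0.21 ± 0.09 (Benjamini-Hochberg adjusted limma p of 0.32, or 0.16 in the blocked fit). Acly, which produces cytosolic acetyl-CoA from citrate for both arms and was the highest member per length, had 74.1, 73.3 and 79.2 FPKM and then 78.1, 84.8 and 81.7. Its groups overlapped by 1 library, at a log2 fold change of 0.11 ± 0.07. The second source of acetyl-CoA, Acss2, was too low to test, at 0.828 ± 0.357 and 0.634 ± 0.256 FPKM. Unlike Fasn, Acaca and Acly, it was lower with ultrasound in each same-numbered pair. It shares exonic bases with 3 genes on the opposite strand.

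Elongases and desaturases gave no common direction. Of the 7 tested, 5 had a fold change above 0, and their adjusted p ran from 0.66 to 0.94 (limma with Benjamini-Hochberg adjustment). Scd2, a stearoyl-CoA desaturase that introduces the first double bond, was the most variable member. It had 35.5, 107.5 and 48.3 FPKM with LPS and 38.3, 58.2 and 144.5 with ultrasound. The high libraries were LPS 2 and ultrasound 3, so same-numbered pairs went in different directions, and the 95% interval of its log2 fold change, -1.09 to 1.62, is wide. Its 2 annotated transcripts have 2166 and 5455 bases, so the transcript length used for the normalisation bears on its FPKM. The paralog Scd1 did not follow it, with 14.1, 21.6 and 18.5 FPKM and then 14.8, 23.7 and 17.6 (0.04 ± 0.20), and it peaked in library 2 of each group as the sterol enzymes did.

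Elovl1, which lengthens saturated very long chains, ranged from 20.8 to 38.2 FPKM with LPS and from 28.2 to 46.6 with ultrasound. Here the libraries numbered 2 were the extremes, lowest and highest of the 6. Elovl6, which takes palmitate to stearate, had 3.87, 3.71 and 4.19 FPKM and then 4.39, 6.14 and 3.28 (0.16 ± 0.18). Elovl5, which acts on polyunsaturated chains, and the desaturase genes Fads1 and Fads2, which make long polyunsaturated fatty acids, were steady. Their log2 fold changes were -0.04 ± 0.08, -0.07 ± 0.08 and 0.07 ± 0.11, and the 95% interval of Fads1 ran from -0.26 to 0.11. Fads3 had 0.311 ± 0.0313 and 0.310 ± 0.0589 FPKM.

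Set side by side, the arms had like medians, and ultrasound library 2 was the highest library of both. The median log2 fold change was 0.08 over the 19 sterol enzymes and 0.12 over the 10 tested fatty acid enzymes, with 13 and 8 above 0. The difference of the medians, sterol minus fatty acid, was -0.03 and ran from -0.10 to 0.09 when single libraries were left out. No test of it was made. The level of an arm in a library was taken as the mean over its genes of log2(FPKM + 1) minus the mean of the gene over the 6 libraries. For the sterol arm it was -0.17, 0.10 and -0.08 in LPS libraries 1, 2 and 3 and -0.17, 0.42 and -0.09 with ultrasound. Only ultrasound library 2 stood above the LPS range. For the fatty acid arm it was -0.15, -0.03 and -0.02 with LPS and -0.11, 0.20 and 0.11 with ultrasound. Ultrasound libraries 2 and 3 stood above the LPS range. The value of ultrasound library 3 leaned on Scd2, 1 of the 10 genes, which had its highest level there, 144.5 FPKM. The level of the arm without Scd2 was not calculated.

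In same-numbered pairs 1, 2 and 3 the sterol arm differed by -0.00025, 0.31 and -0.01, so its mean difference of 0.10 came from pair 2. The fatty acid arm differed by 0.04, 0.23 and 0.13, again most in pair 2. For Acly, Acaca and Fasn together the differences were 0.13, 0.47 and 0.19, above 0 in each pair. For the 7 elongases and desaturases they were 0.0028, 0.13 and 0.10. Scd2 alone differed by 0.10, -0.88 and 1.56. In pair 3 only Fads2, at 0.07, was above 0 beside it, so Scd2 set the pair 3 value of these 7 genes. It also weighed on that of the whole fatty acid arm. The differences without Scd2 were not calculated. Single libraries moved both medians. Without ultrasound library 2 the median of the sterol arm turned to -0.05, with 7 of 19 above 0, and that of the fatty acid arm was 0.0050, with 5 of 10 above 0. Without LPS library 1, 2 or 3 or ultrasound library 1 or 3, the sterol median was 0.04, 0.18, 0.04, 0.19 and 0.18 in that order. The fatty acid median was 0.03, 0.13, 0.14, 0.18 and 0.09 for the same libraries left out. Without both libraries numbered 2 the medians were 0.01 and 0.03. The level of the sterol arm minus that of the fatty acid arm was -0.02, 0.13 and -0.06 in the LPS libraries and -0.07, 0.21 and -0.20 with ultrasound, so the groups overlapped.

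**Figure D4:**
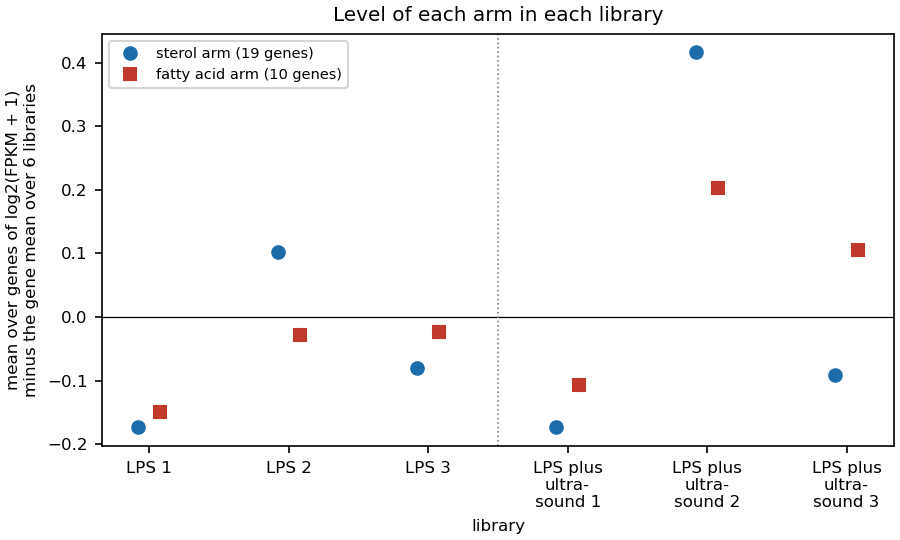
Mean over the genes of an arm of log2(FPKM + 1) minus the gene mean over 6 libraries (y axis) in each library (x axis); circles are the 19 sterol enzymes and squares the 10 tested fatty acid enzymes. The sterol arm reaches 0.42 in ultrasound library 2 alone, and the fatty acid arm is above 0 in ultrasound libraries 2 and 3. In ultrasound library 3 the fatty acid value leans on Scd2, which had its highest level there.

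Genes that cut, degrade or hold the SREBP machinery gave no changed member either. Of 11 such genes, all tested, 8 had a fold change above 0 (median 0.17), 0 passed the adjusted threshold, and at an unadjusted limma p below 0.05 there was 1 higher (9.09%, against 6.18% of all genes) and 1 lower (9.09%, against 9.16%). Erlin2, part of a membrane complex that restrains SREBP, averaged 17.8 ± 2.06 FPKM in the LPS group and 21.1 ± 0.885 in the ultrasound group (log2 fold change 0.23 ± 0.10). Aup1, which helps degrade sterol-regulated membrane proteins, had 36.8 ± 3.05 and 31.8 ± 2.15 FPKM (-0.21 ± 0.09), and shares 753 exonic bases with Htra2 on the opposite strand.

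Of 12 other genes known to respond to SREBP, 9 were tested, 6 had a fold change above 0 (median 0.10) and 0 passed the adjusted threshold. At an unadjusted limma p below 0.05 there were 2 higher (22.2%, against 6.18% of all genes) and 0 lower (against 9.16%). Me1, the malic enzyme that supplies NADPH to Fasn, averaged 9.72 ± 1.32 FPKM in the LPS group and 13.1 ± 2.64 in the ultrasound group (log2 fold change 0.39 ± 0.15). Rdh11, a retinol dehydrogenase, had 55.5 ± 5.24 and 63.7 ± 1.00 FPKM (0.20 ± 0.08). The groups of both genes did not overlap (22.2% of the tested genes, against 9.80% of all genes), and the opposite order was found in 0 (against 13.4%). This list too was drawn up with earlier results of these data known, so its shares are no test of such genes as a group.

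Partners in fatty acid elongation and activation were mixed, with 4 of 9 tested genes above 0 (17 listed, median -0.02) and 0 past the adjusted threshold. At an unadjusted limma p below 0.05 there was 1 higher (11.1%, against 6.18% of all genes) and 1 lower (11.1%, against 9.16%). The groups did not overlap for 2 higher genes (22.2%, against 9.80%) and 1 lower gene (11.1%, against 13.4%). Acsl3, which loads fatty acids onto CoA at lipid droplets, averaged 16.1 ± 1.89 FPKM in the LPS group and 13.1 ± 0.863 in the ultrasound group (log2 fold change -0.28 ± 0.10). Scd3, another desaturase gene close in sequence to Scd1 and Scd2, had 1.07 ± 0.0951 and 1.61 ± 0.381 FPKM (0.32 ± 0.13), and its reads may be shared with them.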

How the data were processed

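Poly(A)-selected mRNA was sequenced as paired ends, per the labels' protocols. The authors deposited 1 table of FPKM for the 6 libraries. Which aligner, quantifier and annotation they used is not given in the sources used here. Both the build in the submitters' processing notes, mRatBN7.2, and the muscle in the extraction text are of rat, whereas the identifiers and cell line are of mouse. Symbols were taken from GENCODE M21 (55154 of 55335 identifiers matched), and table columns were matched to libraries through the letter and number of their titles.

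FPKM carries no counts, so the depth behind each value is unknown; the FPKM sums ranged from 278871 to 292200. The 11270 genes averaging 1 FPKM or more entered the fit (44065 did not). It used limma 3.58.1 (R 4.3.3) on log2 of the deposited FPKM plus a pseudocount of 1, with variance trend and robust moderation, two-sided, and Benjamini-Hochberg adjustment over all these genes at a threshold of 0.05. The script was tested on simulated data.

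Deviations from the group means correlated across genes between same-numbered libraries (0.18, 0.44 and 0.41). Between libraries of different number the correlations ran from -0.40 to 0.06. Deviations within a group sum to 0, which ties these correlations to each other. The numbers in the titles were taken to pair the libraries, a pairing inferred from these same values. The fit without this block is the main one, as designed.

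The members and lists were chosen with earlier results of these data known. Values in every library were due for members with an unadjusted p below 0.05 or separate groups, for the SREBP controllers and for the 2 highest genes of each arm, and at most 2 genes with the smallest p were named from each further list. Those of other members, and the Insig1 and Fasn promoter stretches, were chosen after they were seen. Alternatives covered the pseudocount, filter, scaling, moderation, sample weights, threshold, block and libraries left out.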

Additional observations from a re-analysis of the deposited data

How the results depend on the processing

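No member passed the threshold under any of the 17 alternatives to the pseudocount, filter, scaling, model or set of libraries, with a smallest limma Benjamini-Hochberg adjusted p of 0.072, for Fasn with sample weights. The fold changes of Insig1 (0.23 to 0.37), Fasn (0.28 to 0.59), Acaca (0.12 to 0.26), Acly (0.06 to 0.14), Scap and Tm7sf2 stayed above 0 under each alternative in which the gene was tested. The groups of Insig1, Fasn, Acaca and Tm7sf2 did not overlap, so for these genes only the scaling alternatives could have turned the sign. Their constant sign under the other alternatives was therefore fixed in advance. The sterol median ran from -0.06 to 0.19 and the fatty acid median from -0.02 to 0.18. With sample weights, which gave ultrasound library 1 a weight of 7.70 and both libraries numbered 2 weights of 0.36 and 0.40, both medians fell below 0, the fatty acid one to -0.0151, with 6 of 19 and 5 of 10 genes above 0. The count of changed genes, 2, became 1 with a mean of at least 5 FPKM, 5 with the same FPKM sum, 223 with sample weights, 13 with the replicate block, 6 without both libraries numbered 2, 8 at an adjusted p below 0.1 and 2 to 8 without single libraries; the cause was not tested. The block changed no call of a member. Some fold changes changed sign, and the cause was not tested: Insig2 to 0.0973 and 0.0603 with sample weights and without both libraries numbered 2, and Cyp51 and Scd2 to -0.00528 and -0.0628 with sample weights. Without single libraries Srebf1 ran from -0.145 to 0.0513, Srebf2 from -0.186 to 0.0430, Fdps from -0.0813 to 0.261 and Scd2 from -0.268 to 0.715. No depth is known, so low members such as Tm7sf2, Acaca and Ggps1 carry an unknown counting error.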

Other observations

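Among 11 genes that move or store cholesterol, all tested, 4 were lower and 1 was higher at an unadjusted limma p below 0.05 (36.4% lower, against 9.16% of all genes), and 0 passed the adjusted threshold. The 4 are Osbpl2, Gramd1a, Stard3 and Soat2, and the higher one is Lipa. The groups did not overlap for the same 4 lower genes (36.4%, against 13.4% of all genes) and for 1 higher gene, Osbp (9.09%, against 9.80%). Stard3, Soat2, Lipa and Osbp are named here after their values were seen. The list itself was drawn up with earlier results of these data known, so these shares are no test of such genes as a group. Osbpl2, an oxysterol-binding lipid carrier, had 24.6, 26.3 and 24.7 FPKM with LPS and 19.8, 19.8 and 19.0 with ultrasound (log2 fold change -0.35 ± 0.07, Benjamini-Hochberg adjusted limma p of 0.15, or 0.060 in the fit blocked on the replicate number). Gramd1a, which carries cholesterol from the plasma membrane to the endoplasmic reticulum, had 28.3, 34.9 and 34.9 FPKM and then 17.0, 24.6 and 20.2 (-0.65 ± 0.15, Benjamini-Hochberg adjusted limma p of 0.18, or 0.058 in the blocked fit). An antisense gene shares 420 exonic bases with Gramd1a. In both genes each ultrasound library was below each LPS library.

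Genes that use isoprenoids split evenly, with 6 of 12 above 0 and 0 past the adjusted threshold. At an unadjusted limma p below 0.05 there were 2 higher (16.7%, against 6.18% of all genes) and 1 lower (8.33%, against 9.16%). The groups did not overlap for 3 higher genes (25%, against 9.80%) and 3 lower genes (25%, against 13.4%). This list too was drawn up with earlier results known, so its shares are no test. Rabggtb, a subunit of the enzyme that prenylates Rab proteins, averaged 18.9 ± 2.41 FPKM in the LPS group and 13.4 ± 0.492 in the ultrasound group (log2 fold change -0.46 ± 0.10), and holds 2 small nucleolar RNAs on its strand. Zmpste24, which trims farnesylated proteins, had 15.95 ± 2.11 and 20.0 ± 0.755 FPKM (0.32 ± 0.10). Of 9 LXR and oxysterol genes 6 were tested, 3 of them above 0, and 0 passed at an adjusted or an unadjusted limma p below 0.05. Nr1h3, the gene of LXR alpha, had 1.65 ± 0.171 and 1.30 ± 0.268 FPKM, and each ultrasound library was below each LPS library (log2 fold change -0.21 ± 0.12, Benjamini-Hochberg adjusted limma p of 0.43). That order was found in 1 of the 6 tested genes (16.7%, against 13.4% of all genes). Ch25h, which makes 25-hydroxycholesterol, an inhibitor of SREBP processing, was listed at 0 in all 6 libraries, and an exact 0 in such a table can be a failed estimate.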
